A study of Mus musculus with 6 samples.

Results

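The cytokine genes described here are the 9 measured members of the IL-6, IL-12 and IL-10 families that macrophages can make: Il6, Lif and Osm of the IL-6 family, Il12a, Il12b, Il23a, Il27 and Ebi3 of the IL-12 family, and Il10. They were taken by symbol from a table of 23282 symbols, and where a symbol has several transcripts the one with most reads stands for it. Of the 9, 7 reached a mean of 10 reads per library and were among the 7995 genes tested; Il12a (mean 9.5 reads) and Il10 (9.8) fell just short, and Il12b (11.2) and Osm (11.5) were just above.

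Macrophages of female C57BL/6 mice, drawn from the peritoneum after thioglycollate, were given siRNA against Smyd5 (siSmyd5), against Phf2 (siPhf2) or a control siRNA (siCtl) for 48 hours and then KLA or vehicle, and poly(A) RNA was sequenced. KLA, which the agent label gives as Kdo2-lipid A, a form of LPS that acts on the receptor TLR4, was used at 100 ng per ml for 4 hours. There is 1 library for each of the 6 combinations, so no group has replicates, every ratio between 2 libraries compares those libraries only, and all intervals below are 95% intervals that cover counting error alone. Every group shares the thioglycollate recruitment and an siRNA transfection, and no untransfected cells are included.

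IL-6, LIF and oncostatin M signal through receptors that share the chain gp130 and activate STAT3. The IL-12 family is made of heterodimers that share subunits: IL-12 joins p35 (Il12a) to p40 (Il12b), IL-23 joins p19 (Il23a) to the same p40, IL-27 joins p28 (Il27) to EBI3, and IL-35 joins p35 to EBI3. IL-10 is the main cytokine by which activated macrophages restrain their own inflammatory response, also through STAT3. Smyd5 encodes a SET domain protein of the histone methyltransferase class and Phf2 a PHD finger protein of the histone demethylase class.

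The libraries differ in depth and 2 of them stand apart. Reads counted were between 919338 and 1429509 in the siSmyd5 and siCtl libraries, but 420149 (KLA) and 577054 (vehicle) in the siPhf2 libraries, where the ribosomal RNA precursor Rn45s took 71.6% and 66.7% of them against at most 1.2% elsewhere. Without it the siPhf2 libraries held 119144 and 192420 reads. The siPhf2 and siCtl columns carry each other's header totals (100% of their values are whole reads only with the other's total), so either names or totals were exchanged in the table; arms are called by their printed labels. The targets bear out the labels only for Smyd5 with vehicle. Smyd5 had 20 (KLA) and 9 (vehicle) reads in the siSmyd5 libraries against 29 and 44 in the siCtl libraries, which at that depth is 1.10 of siCtl with KLA (0.592 to 2.02) and 0.330 with vehicle (0.141 to 0.684). Phf2, not the target there, was lower in the siSmyd5 KLA library (34 reads against 120 in the siCtl KLA library, 0.454, 0.30 to 0.669). Phf2 had 8 and 29 reads in the siPhf2 libraries against 120 and 113 in the siCtl libraries, or 1.08 (0.457 to 2.20) and 2.54 (1.63 to 3.85) of siCtl. Neither ratio was below 1, against the printed label. With the names exchanged the vehicle difference would turn round, and Phf2 would be lower in the library then labelled siPhf2. Which of names or totals was exchanged was not tested. Every siRNA name below therefore means the library labelled so, and no difference is read as the effect of a knockdown. Macrophage markers were high in every library (8 of 8 with reads, summed level 3680 to 5480 CPM, which stands for TMM-scaled reads per 1000000). Stromal and mesothelial markers were present too, at 332 (KLA) and 427 (vehicle) CPM in the siPhf2 libraries, 710 and 644 in the siSmyd5 libraries and 858 and 837 in the siCtl libraries, with all 7 or 6 of 7 detected. Nearly all of these reads came from Col1a1, Col1a2, Col3a1 and Dcn, while Msln and Upk3b had at most 4 reads in any library. Fewer cells of a type and less RNA per cell cannot be told apart in such bulk samples.

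What KLA did to these genes was asked first. Il6, Il12b, Il23a, Il27 and Lif rose in the effect averaged over the 3 siRNA arms. Of these 5, only Il12b and Il27 had counting intervals above equality in the siPhf2 arm. Il12a and Il10 had 57 and 58 reads over the KLA libraries against 0 and 1 over the vehicle libraries, and Osm (log2 fold 1.33) and Ebi3 (−0.16) did not pass the test. The averaged effect is a coefficient of an additive model of siRNA and agent fitted to all tested genes (edgeR quasi-likelihood, TMM scaling, Benjamini-Hochberg adjusted over 7995 genes). Of the 7 tested members 5 rose and 0 fell, where 11.2% of all tested genes rose and 4.6% fell; Il6, Il12b, Il23a, Il27, Lif and Osm owe their place above the minimum mean to the KLA libraries, so this count describes them and is no support. The members' median log2 fold was 5.19, beside −0.03 over all tested genes.

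**Figure D1:**
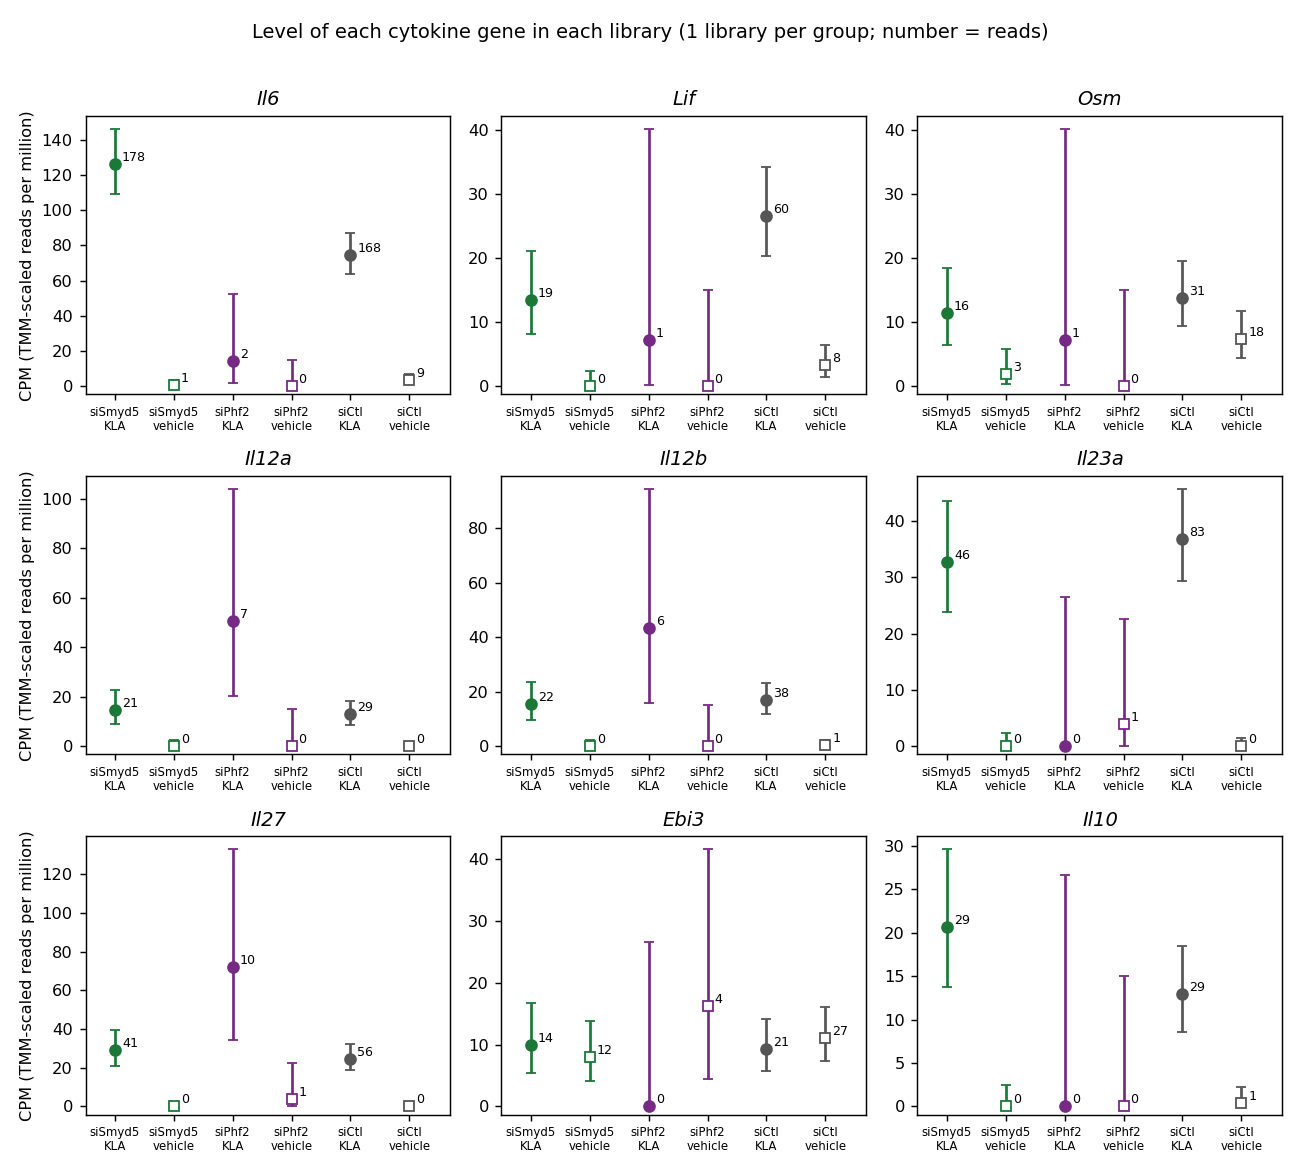
Level of each of the 9 genes in each library, in CPM (y, linear, own scale per panel) with exact 95% Poisson intervals; numbers are reads, filled circles KLA, open squares vehicle. Il6 stands at 126 CPM in the siSmyd5 KLA library, 14.4 in the siPhf2 KLA library and 74.5 in the siCtl KLA library, while Ebi3 lies between 7.93 and 16.3 wherever it has reads.

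**Figure D2:**
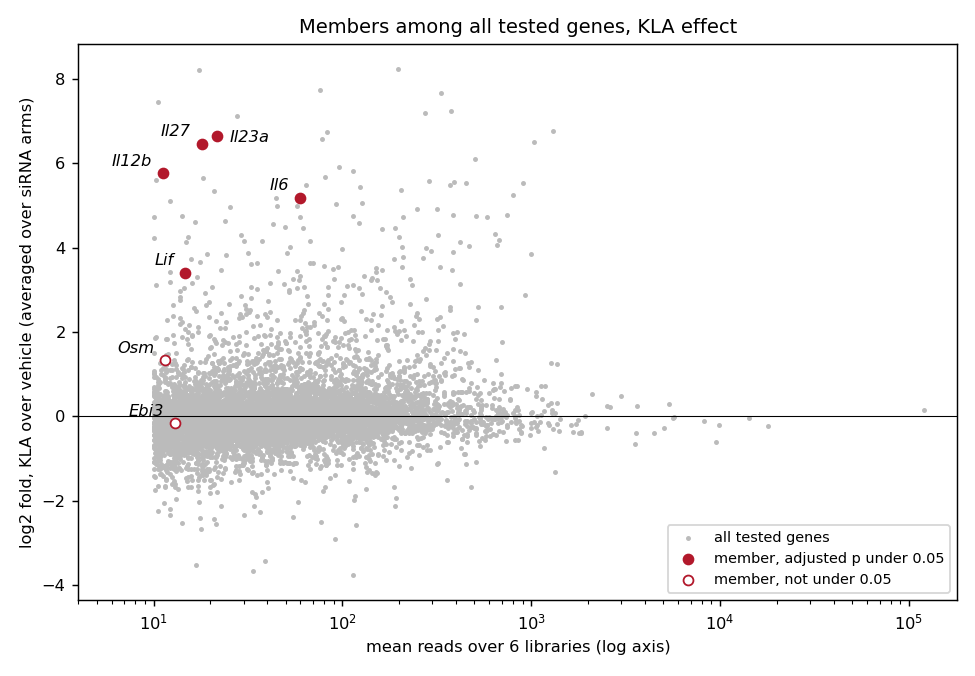
Averaged log2 fold of KLA over vehicle (y) against mean reads over the 6 libraries (x, log axis) for the 7995 tested genes, with the 7 tested members in red. Il23a (6.64), Il27 (6.5), Il12b (5.77), Il6 (5.19) and Lif (3.40) lie far above the bulk, Osm (1.33) at its upper edge and Ebi3 (−0.16) within it.

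Il6 (NM_031168, mm9 chr5:30339701-30346508), the pyrogenic and acute phase cytokine, had 178 reads with KLA and 1 with vehicle in the siSmyd5 arm, 2 and 0 in the siPhf2 arm, and 168 and 9 in the siCtl arm. The siSmyd5 and siCtl KLA libraries were far above every vehicle library, and the siPhf2 KLA library held almost none. KLA over vehicle was 191-fold (33.9 to 7600) in the siSmyd5 arm and 20.2-fold (10.4 to 44.9) in the siCtl arm, and with 2 reads against 0 it could not be resolved in the siPhf2 arm. The averaged log2 fold was 5.19 (standard error 0.38, edgeR adjusted p = 3.03e-09), between 4.31 without the siSmyd5 vehicle library and 7.35 without either siCtl library, and it passed without any 1 library.

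Lif (NM_008501, chr11:4157571-4172517), named for its block on leukaemia cell growth and known as a stem cell factor, had 19 reads with KLA and 0 with vehicle in the siSmyd5 arm, 1 and 0 in the siPhf2 arm, and 60 and 8 in the siCtl arm. It was at least 6.81-fold higher with KLA in the siSmyd5 arm, against a floor of 3 reads in the vehicle library, and 8.11-fold higher (3.86 to 19.6) in the siCtl arm. The averaged log2 fold was 3.40 (standard error 0.50, edgeR adjusted p = 4.53e-05), and the call was lost without the siCtl KLA library (log2 fold 6.87, edgeR adjusted p = 0.0688) and with limma on log2 values at a pseudocount of 1 CPM (3.19, adjusted p = 0.0781).

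Osm (NM_001013365, chr11:4136788-4141029), which lies 16542 bases from Lif and encodes oncostatin M, had 16 reads with KLA and 3 with vehicle in the siSmyd5 arm, 1 and 0 in the siPhf2 arm, and 31 and 18 in the siCtl arm. In the siCtl vehicle library its 18 reads stood beside 8 for Lif, so both neighbours were detected at rest there. It was 5.73-fold higher (1.64 to 30.7) with KLA in the siSmyd5 arm and 1.86-fold (1.01 to 3.54) in the siCtl arm. The averaged log2 fold of 1.33 (standard error 0.45) missed the threshold (edgeR adjusted p = 0.0514), and it passed with the siPhf2 libraries left out (1.25, adjusted p = 0.0117).

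In the IL-12 family the pair that makes IL-12 appeared together. Il12a (NM_001159424, chr3:68494566-68502469), the p35 chain, had 21 reads with KLA and 0 with vehicle in the siSmyd5 arm, 7 and 0 in the siPhf2 arm, and 29 and 0 in the siCtl arm. Every KLA library had reads and no vehicle library had any, and the bounds against a floor of 3 reads were at least 7.52-fold, 4.14-fold and 10.5-fold higher in the siSmyd5, siPhf2 and siCtl arms. The exact intervals began at 5.6-fold, 2.56-fold and 7.97-fold in the same arms. Below the minimum mean it was outside the test. With no minimum it rose (edgeR adjusted p = 1.40e-13 over all genes with a read). That setting also took the edgeR adjusted p of Il12b from 4.17e-06 to 2.67e-14, so its p-values do not compare with those of the main fit. Il12b (NM_008352, chr11:44213565-44227519), the p40 chain that IL-12 and IL-23 share, had 22 and 0 reads in the siSmyd5 arm, 6 and 0 in the siPhf2 arm and 38 and 1 in the siCtl arm, KLA before vehicle. It was at least 7.88-fold, at least 3.55-fold and 41.1-fold (6.94 to 1670) higher with KLA in those arms, with an averaged log2 fold of 5.77 (standard error 0.70, edgeR adjusted p = 4.17e-06) that went up to 7.49 without the siCtl KLA library.

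Il23a (NM_031252, chr10:127733196-127735140), the p19 chain that makes IL-23, had 46 reads with KLA and 0 with vehicle in the siSmyd5 arm, 0 and 1 in the siPhf2 arm, and 83 and 0 in the siCtl arm. Reads with KLA were thus present in 2 of 3 arms, at least 16.5-fold higher than with vehicle in the siSmyd5 arm and at least 29.9-fold in the siCtl arm. The averaged log2 fold was 6.64 (standard error 0.71, edgeR adjusted p = 6.65e-07), and lay between 5.22 (without siCtl KLA) and 8.79 (without siPhf2 KLA) leaving out 1 library. Il23a did not pass with DESeq2 (6.99, adjusted p = 0.423) or with limma on log2 values (1.03, adjusted p = 0.261, and 2.66, adjusted p = 0.462, at a pseudocount of 1).

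Il27 (NM_145636, chr7:133732809-133738424), the p28 chain of IL-27, had 41 reads with KLA and 0 with vehicle in the siSmyd5 arm, 10 and 1 in the siPhf2 arm, and 56 and 0 in the siCtl arm. It was higher with KLA in all 3 arms, at least 14.7-fold (siSmyd5), 17.7-fold with an interval of 2.52 to 770 (siPhf2) and at least 20.2-fold (siCtl). The averaged log2 fold was 6.5 (standard error 0.64, edgeR adjusted p = 2.66e-07), between 5.66 without the siCtl vehicle library and 8.38 without the siPhf2 KLA library.

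Ebi3 (NM_015766, chr17:56092046-56096445), the partner of p28 in IL-27, behaved otherwise. It had 14 reads with KLA and 12 with vehicle in the siSmyd5 arm, 0 and 4 in the siPhf2 arm, and 21 and 27 in the siCtl arm. The KLA and vehicle libraries overlapped in reads, with KLA over vehicle at 1.25 (0.538 to 2.97) in the siSmyd5 arm and 0.841 (0.452 to 1.54) in the siCtl arm. The averaged log2 fold was −0.16 (standard error 0.41, edgeR adjusted p = 0.866). Over the vehicle libraries Ebi3 had 43 reads, more than any other member.

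Il10 (NM_010548, chr1:132916422-132921547) had 29 reads with KLA and 0 with vehicle in the siSmyd5 arm, 0 and 0 in the siPhf2 arm, and 29 and 1 in the siCtl arm. KLA over vehicle was at least 10.4-fold higher in the siSmyd5 arm and 31.4-fold (5.2 to 1280) in the siCtl arm, and the siPhf2 arm gave no value. With no minimum mean it passed the test (edgeR adjusted p = 1.66e-11, which as for Il12a does not compare with the main fit).

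**Figure D3:**
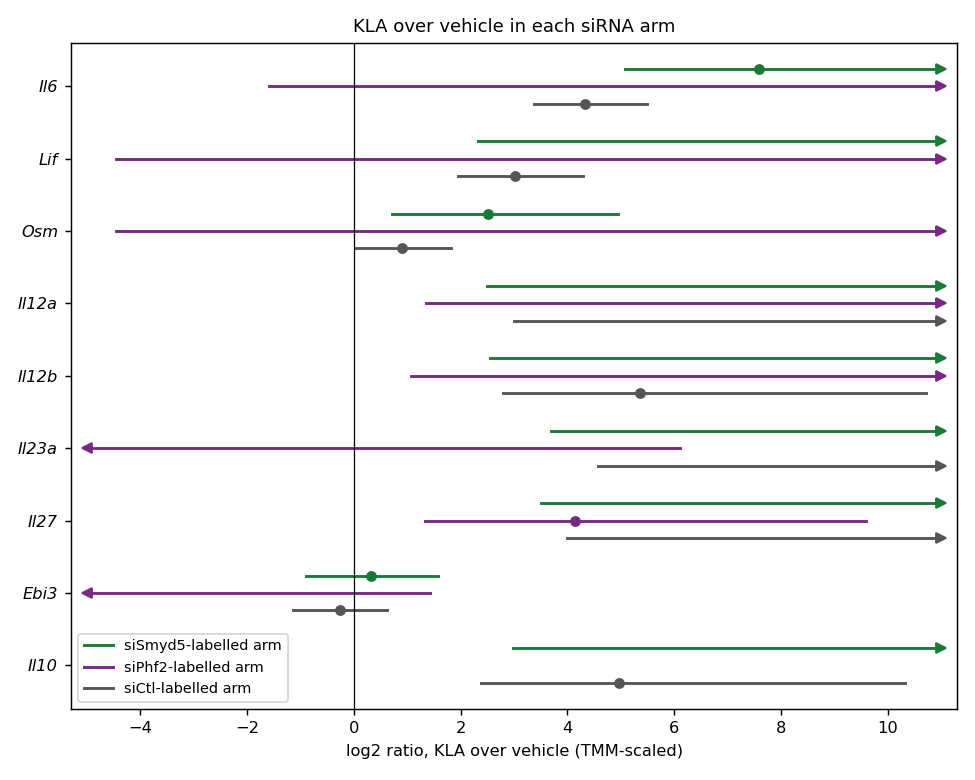
KLA over vehicle for each gene in each siRNA arm, as the log2 ratio of TMM-scaled reads (x) with exact conditional 95% intervals; arrows mark intervals with no finite end on the axis, and a line without a dot has 0 reads in at least 1 library, and Il10 in the siPhf2 arm, with none in either, is not drawn. The intervals of 8 genes lie above 0 in both the siSmyd5 and siCtl arms, that of Osm in the siCtl arm only just, and those of Ebi3 cross 0 in every arm.

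By size (a log2 ratio of at least 1 with 2 reads added, a mean of at least 10 reads and an interval that leaves out equality) 6 of 7 tested members were called higher with KLA in the siSmyd5 arm, 2 in the siPhf2 arm and 5 in the siCtl arm, where 8.72%, 8.31% and 7.18% of all tested genes were. Il6, Lif, Osm, Il12b, Il23a and Il27 all reached the minimum mean through their KLA libraries, so these counts too describe them and are no support. None was called lower, beside 3.5%, 6.65% and 2.68%. Whether the arms differ in their response was not tested, since no arm has replicates. The dendritic cell markers moved with KLA through 1 gene: Zbtb46 had 13, 2 and 20 reads in the siSmyd5, siPhf2 and siCtl KLA libraries against 1, 0 and 1 with vehicle, while Flt3, Cd209a and Siglech had 0 in every library; the part of such cells in the IL-12 family values was not tested.

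The letters around the start sites of these genes are shown because the members respond to 1 stimulus in different ways. RefSeq windows on GRCm38.p6 (not the build of the counts) were at hand for 5 of the 9 members, and the 250 bases before the start of Il6 (chr5:30012864-30013113, plus strand) and Il12b (chr11:44399813-44400062, plus strand), which rose, and of Ebi3 (chr17:55952373-55952622, plus strand), which did not pass, are printed here 5′ to 3′. Capitals mark matches to any of 6 motifs, searched on both strands: NF-kB (GGG and CC with any 5 bases between), C/EBP (TTNNGNAA), AP-1 (TGANTCA), the CRE core TGACG, the TATA box TATAAA, and IRF (GAAA and GAAA with any 2 bases between).
Il6: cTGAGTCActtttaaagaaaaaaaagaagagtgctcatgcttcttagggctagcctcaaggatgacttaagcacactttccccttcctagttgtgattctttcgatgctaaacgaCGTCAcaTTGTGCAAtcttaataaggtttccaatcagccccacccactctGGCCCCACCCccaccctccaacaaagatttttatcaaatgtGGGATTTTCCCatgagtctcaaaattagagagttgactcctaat
Il12b: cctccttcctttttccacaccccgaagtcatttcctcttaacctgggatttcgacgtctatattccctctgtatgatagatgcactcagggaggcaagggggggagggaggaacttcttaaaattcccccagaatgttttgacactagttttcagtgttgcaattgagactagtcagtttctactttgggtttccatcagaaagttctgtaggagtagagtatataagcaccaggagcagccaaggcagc
Ebi3: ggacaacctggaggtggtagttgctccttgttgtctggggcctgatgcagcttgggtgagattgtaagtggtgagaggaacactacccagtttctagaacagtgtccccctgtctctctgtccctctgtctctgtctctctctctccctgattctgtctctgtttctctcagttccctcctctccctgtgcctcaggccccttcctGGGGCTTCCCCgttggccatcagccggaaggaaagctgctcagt
In Il6 the window held GGGATTTTCC 44 bases before the start, a second NF-kB match at 85 on the minus strand, TTGTGCAA at 128, the CRE core at 135 and TGAGTCA at 249. Il12b held no match, and Ebi3 held overlapping NF-kB matches at 44 and 43 while its RNA did not pass the test for KLA. Among the windows not printed, 1 of Il12a and that of Lif held NF-kB matches too, the nearest at 112 and 48. Lif also held an AP-1 match at 228. The patterns allow no mismatch, so no match does not mean no site. The NF-kB letters occur in 45.8% of 32851 windows of that length, the C/EBP letters in 36.8%, TGACG in 17.8%, TATAAA in 12.4%, the AP-1 letters in 6.75% and the IRF letters in 2.98%, so these matches describe the windows and mark no site of binding.

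How the levels of the members stood to each other was read within single libraries, per length. In the siSmyd5 KLA library Il6 was highest at 117 CPM per kb of deposited mRNA length, above Il27 at 41.6 and Il23a at 24.1, each step beyond counting error. The other 6 followed from Il10 at 15.8 to Lif at 3.37 without neighbours that differed beyond their intervals. The siCtl KLA library had the same top 3, Il6 at 68.9, Il27 at 35.5 and Il23a at 27.2, of which Il27 and Il23a did not differ beyond counting error, and the other 6 lay between 6.64 (Lif) and 9.94 (Il12a). In the siPhf2 KLA library Il27 was highest at 103 and Il12a next at 39.0, with Il6 at 13.3 from 2 reads, and no neighbours in that order differed beyond counting error. At rest in the siCtl library Ebi3 led at 9.50, ahead of Osm at 3.88 and Il6 at 3.41.

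The column headers refer to coding sequence while the deposited length is that of the mRNA, and the order below Il6 depends on which is used. Il27 is listed with an mRNA of 700 bases, shorter than its coding length of 702, and per kb of coding length it stood at 41.5 in the siSmyd5 KLA library, below Il23a at 55.6 and within counting error of it. Lif has 4011 bases, 609 of them coding. Per kb of coding length Lif reached 43.7 in the siCtl KLA library, behind only Il6 (118) and Il23a (62.6), in place of last. Il6 was highest on either scale in the siSmyd5 and siCtl KLA libraries.

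**Figure D4:**
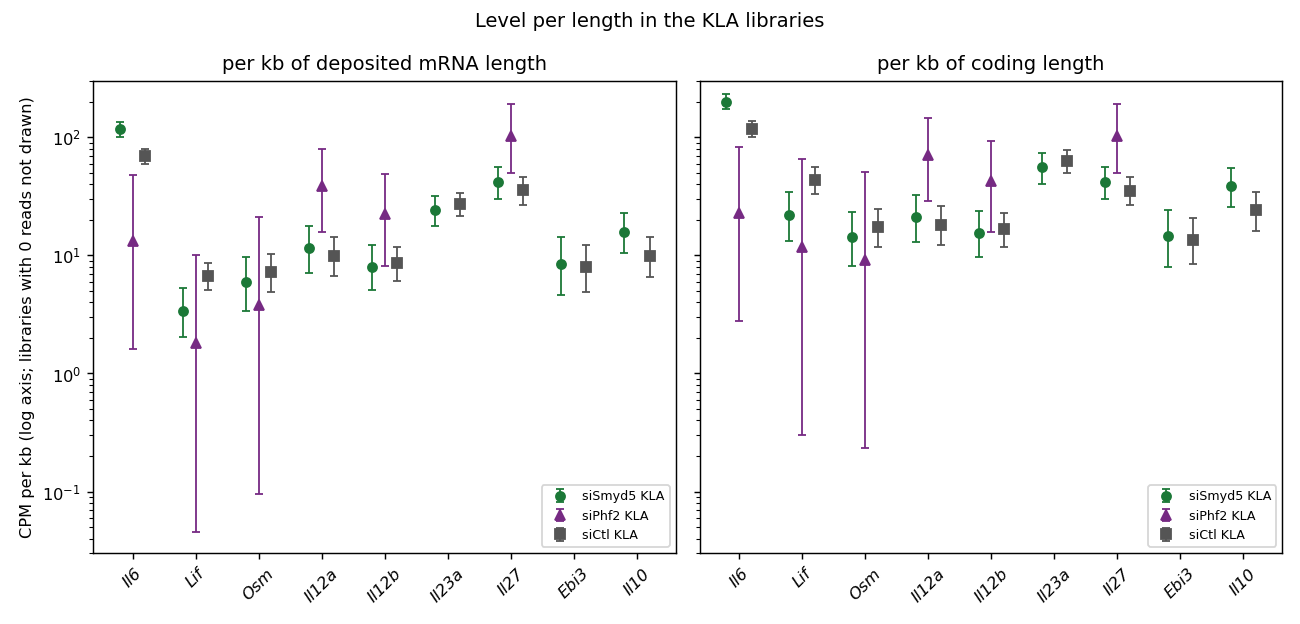
Level per kb (y, log axis) of each gene in the KLA libraries, on the deposited mRNA length (left) and the coding length (right), with exact 95% Poisson intervals; genes with 0 reads are not drawn. Il6 is highest in the siSmyd5 and siCtl libraries on both scales and Il27 in the siPhf2 library, while the places of Lif, Il23a and Il27 depend on the scale.

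The subunit pairs were compared within each KLA library as ratios per kb of mRNA. For IL-12, p35 over p40 (Il12a over Il12b) was 1.43 (0.749 to 2.73) in the siSmyd5 library, 1.75 (0.504 to 6.30) in the siPhf2 library and 1.15 (0.681 to 1.91) in the siCtl library, so neither chain was in excess beyond counting error. For IL-23, p19 over p40 (Il23a over Il12b) was 3.0 (1.77 to 5.23) in the siSmyd5 library and 3.13 (2.11 to 4.73) in the siCtl library, an excess of p19 RNA in each, while the siPhf2 library had 0 p19 reads beside 6 of p40 (ratio at most 1.22). For IL-27, p28 over EBI3 (Il27 over Ebi3) was 4.88 (2.61 to 9.69) in the siSmyd5 library and 4.44 (2.65 to 7.72) in the siCtl library, and the siPhf2 library had 10 p28 reads and 0 of EBI3. At rest it was the other way round, with 0 p28 reads beside 12 of EBI3 in the siSmyd5 vehicle library, 1 beside 4 in the siPhf2 vehicle library, a gap within counting error, and 0 beside 27 in the siCtl vehicle library. For IL-35, p35 over EBI3 (Il12a over Ebi3) was 1.35 (0.655 to 2.9) and 1.24 (0.685 to 2.29) in the siSmyd5 and siCtl KLA libraries. The siPhf2 KLA library had 7 p35 reads and 0 of EBI3 (ratio at least 1.3 by its interval). At rest 0 p35 reads stood beside 12, 4 and 27 of EBI3 in the siSmyd5, siPhf2 and siCtl libraries, in the siPhf2 library within counting error. On coding length the IL-27 ratios were 2.85 and 2.60, still above 1.

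Whether the siSmyd5 label changed these genes was asked next. Averaged over both agents 0 of 7 tested members changed, where 6.39% of all tested genes did, with 1 member (Lif) at an unadjusted p under 0.05 in edgeR, 0 members with DESeq2, which gave an adjusted p for Il6 and Il27 only, and 0 with limma. The members' median log2 fold was −0.17, beside 0.00 over all tested genes. All siRNA comparisons share the siCtl libraries.

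Under KLA the counting intervals of Il6 and Lif left out 1, on opposite sides, and no test between members was made. Il6 at 178 reads in the siSmyd5 library against 168 in the siCtl library was 1.70-fold (1.37 to 2.11) of it at this depth. Its averaged log2 fold was 0.59 (standard error 0.29, edgeR adjusted p = 0.227). Lif at 19 reads against 60 was at 0.507 of siCtl (0.286 to 0.861), and its averaged log2 fold was −1.18 (standard error 0.46, edgeR adjusted p = 0.120). Neither passed, nor did either reach the size bound under KLA. In fits without the siPhf2 libraries, whose residual comes only from the siSmyd5 and siCtl KLA responses, both passed (Il6 0.63, edgeR adjusted p = 0.0197, and Lif −1.19, adjusted p = 0.0164). Leaving out the siSmyd5 or the siCtl KLA library left that label with its vehicle library alone. The siSmyd5 and siCtl vehicle libraries had 1 and 9 Il6 reads and 0 and 8 Lif reads. The Il6 fold then turned to −2.29 without the siSmyd5 KLA library and −2.30 without the siCtl KLA library. The Lif fold moved to −5.11 and −4.87 without the same libraries. For Il6 no direction held over the tools either (−0.03 with DESeq2, −0.37 with limma at a pseudocount of 1). If siCtl and siPhf2 trade names the folds are 3.10 for Il6 and 0.94 for Lif, which turns Lif round. With a trend over transcript length taken out, Il6 under KLA stood at 0.41 on the log2 scale in place of 0.75. Stromal and mesothelial markers stood at 710 CPM in the siSmyd5 KLA library against 858 in the siCtl KLA library, and their part in these values was not tested.

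The other members under KLA lay on either side of siCtl with intervals that hold 1. Il10, at 29 reads in each library, was at 1.6 (0.923 to 2.78) of siCtl, Il27 at 1.17 (0.764 to 1.79), Il12a at 1.16 (0.628 to 2.10), Ebi3 at 1.07 (0.502 to 2.20), Il12b at 0.927 (0.522 to 1.61), Il23a at 0.887 (0.605 to 1.29) and Osm at 0.826 (0.422 to 1.56). The narrowest intervals were those of Il23a and Il27, those of these 7 with most reads, and a change within these bounds was not detectable at this depth.

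With vehicle Osm and Lif were lower in the siSmyd5 library, and the interval for Il6 held 1. Osm had 3 reads against 18 in the siCtl library (0.269 of siCtl, 0.0507 to 0.920). Lif had 0 against 8 (at most 0.944 of siCtl by its interval), and Il6 had 1 against 9 (0.179, 0.00408 to 1.29). Osm and Lif were called lower by size, 2 of 7 tested members beside 5.42% of all tested genes, and 0 were called higher beside 2.6%. Under KLA 0 were called either way, beside 1.83% higher and 3.76% lower. Ebi3, with 12 reads against 27, was at 0.716 (0.330 to 1.46). With the siCtl and siPhf2 names exchanged Osm and Lif stood at 0.68 and 0.00 on the log2 scale and lost their calls.

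**Figure D5:**
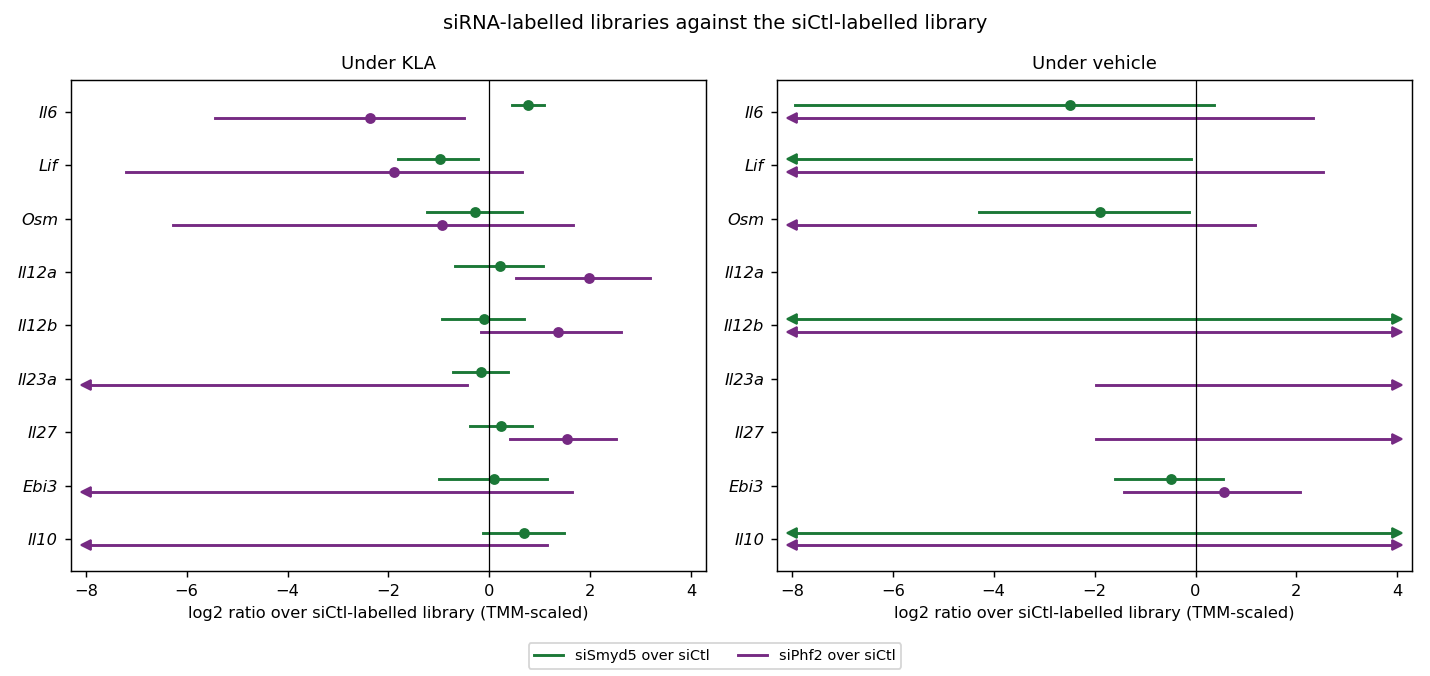
Ratio of each siSmyd5 and siPhf2 library over the siCtl library (log2, x) under KLA (left) and vehicle (right), with exact conditional 95% intervals; arrows mark intervals that run off the axis and a line without a dot has 0 reads on 1 side. Under KLA the siSmyd5 intervals of Il6 and Lif leave out 0 on opposite sides, and the siPhf2 intervals split, Il6 and Il23a below and Il12a and Il27 above.

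What the siPhf2-labelled libraries showed rests on few reads, and 0 of 7 tested members changed in the averaged fit, where 12.6% of all tested genes did; at an unadjusted p under 0.05 edgeR gave 2, Il6 and Il27, and 0 were called by limma on log2 values or by DESeq2, which gave an adjusted p for Il6 only. The members' median log2 fold was −1.82, beside −0.13 over all tested genes. Under KLA the members split. At the siCtl level 10.3 Il6 reads and 5.11 Il23a reads would have been counted in the siPhf2 KLA library, and 2 and 0 were. Il6 was at 0.193 of siCtl (0.0232 to 0.710) and Il23a, with 0 reads, at most at 0.739 of siCtl by its interval. For Il27 and Il12a 3.45 and 1.78 reads would have been counted, and 10 and 7 were, ratios of 2.90 (1.32 to 5.74) and 3.92 (1.45 to 9.15). Il12b, at 6 reads where 2.34 would have been counted, was at 2.57 (0.887 to 6.12).

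By size 1 of 7 tested members was called higher (Il27) and 2 lower (Il6 and Il23a) under KLA, beside 7.73% and 7.19% of all tested genes. With vehicle 0 were called, beside 10.6% and 8.72%. For Il10, Ebi3, Osm and Lif at most 3.69 reads would have been counted in the siPhf2 KLA library, so their 0, 0, 1 and 1 reads resolve no difference. In the averaged fit Il6 had a log2 fold of −2.50 (standard error 0.93, edgeR adjusted p = 0.0822) and Il27 of 1.67 (standard error 0.65, adjusted p = 0.0977). Il6 passed when scaled to the total (−4.69) or to the total without Rn45s (−2.95, adjusted p = 0.0291), with no minimum mean (−2.75), without the siPhf2 vehicle library (−2.42, adjusted p = 0.0398) and without the siCtl KLA library (−5.42, adjusted p = 0.0495). It did not pass with DESeq2 (−2.42, adjusted p = 0.139), limma-voom (−1.41, adjusted p = 0.247), limma on log2 values (adjusted p = 0.251, and 0.164 at a pseudocount of 1), or without any 1 of the other libraries (edgeR adjusted p from 0.115 without siSmyd5 vehicle to 0.543 without siPhf2 KLA).

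Il6 was also set against the IL-12 family chains within each library, where no scaling enters; these ratios were chosen after the values were seen. Il6 reads per Il27 read were 4.34 (3.08 to 6.26) in the siSmyd5 KLA library, 0.20 (0.0213 to 0.939) in the siPhf2 KLA library and 3.0 (2.20 to 4.14) in the siCtl KLA library. Il6 reads per Il12a read were 8.48 (5.38 to 14.0), 0.286 (0.0290 to 1.5) and 5.79 (3.89 to 8.92) in the same libraries, and per Il12b read 8.09 (5.18 to 13.2), 0.333 (0.0329 to 1.86) and 4.42 (3.09 to 6.5). Against Il23a, low in that library too, no shift could be seen: 3.87 (2.78 to 5.47) in the siSmyd5 KLA library, 2 reads against 0 in the siPhf2 KLA library (ratio at least 0.188 by its interval) and 2.02 (1.55 to 2.67) in the siCtl KLA library. The scaling does decide which genes of the split count as changed: with the library total the median of all tested genes in this contrast moves to −2.24 from −0.31, and Il27 and Il12a stand at −0.66 and −0.25, above that median, in place of 1.41 and 1.72. The sum of the stromal and mesothelial markers, at 332 CPM in the siPhf2 KLA library against 858 in the siCtl KLA library, was lower there too. Nearly all of its reads came from Col1a1, Col1a2, Col3a1 and Dcn (20, 11, 6 and 7 in the siPhf2 KLA library). Msln, Upk3b and Wt1 had 1, 1 and 0 reads there against 1, 1 and 16, too few to compare. The part of such cells in the Il6 value was not tested. If the names are exchanged every sign in this contrast turns round.

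Among the receptors and signal transducers of these families 11 of 16 were tested, and 2 rose and 1 fell with KLA, beside 11.2% and 4.6% of all tested genes (median log2 fold 0.25, all tested genes −0.03). The kinase Jak2 rose (log2 fold 2.38, edgeR adjusted p = 9.12e-08), and the IL-6 receptor chain Il6ra fell (−1.25, adjusted p = 0.0115). Il6ra had 9 reads with KLA and 28 with vehicle in the siSmyd5 arm, 2 and 16 in the siPhf2 arm and 23 and 48 in the siCtl arm, lower with KLA in all 3. The chains for the other ligands did not pass: Il6st, which encodes gp130, had −0.14, the LIF receptor Lifr 0.82, the oncostatin M receptor Osmr 0.80, and the IL-10 receptor chains Il10ra −0.37 and Il10rb −0.28. Il12rb1, Il12rb2, Il23r and Il27ra, the chains for IL-12, IL-23 and IL-27, had at most 8 reads in any library and were not tested.

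Of the other ligands of these families 1 of 11 was tested, Clcf1, a gp130 cytokine, which rose with KLA (log2 fold 2.97, edgeR adjusted p = 9.03e-05; 24, 2 and 47 reads in the siSmyd5, siPhf2 and siCtl KLA libraries against 1, 1 and 8 with vehicle). Clcf1 reached the minimum mean through its KLA libraries, so its call describes it and is no support. Il20, Il22, Il24, Il31 and Ctf1 had 0 reads in every library. Of 7 genes of the IL-10 and STAT3 response 4 rose and 0 fell with KLA, beside the same 11.2% and 4.6% (median 0.59): the feedback inhibitor Socs3 (5.04), the atypical IkB protein Bcl3 (2.29), the IL-1 receptor antagonist Il1rn (1.30) and the IL-4 receptor chain Il4ra (0.59). Socs3 had 210, 41 and 285 reads in the siSmyd5, siPhf2 and siCtl KLA libraries, against 5, 3 and 10 with vehicle. Socs3 too reached the minimum mean through its KLA libraries, so its place among the 4 is no support. Its count in the siPhf2 KLA library says nothing on Il10, of which 1.78 reads would have been counted there at the siCtl level and 0 were.

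Of 10 regulators of cytokine mRNA 5 rose and 1 fell with KLA, beside 11.2% and 4.6% of all tested genes (median 0.50). The nuclease Zc3h12a, which degrades Il6 and Il12b mRNA, rose most (3.27, edgeR adjusted p = 7.00e-10), followed by the decay factor Zfp36 (1.17), Rc3h1 (1.08), which encodes roquin, and Arid5a (0.91), which protects Il6 mRNA, and Zfp36l2 fell (−0.89). Of 12 tested transcription factors known to act at these genes 8 rose and 1 fell, beside the same shares (median 1.13). The atypical IkB Nfkbiz, needed for full Il6 and Il12b transcription, rose by 4.91, Irf1 by 4.01, Nfkb1 by 3.14 and the subunit Rel by 3.11, all on the log2 scale, and the repressor Bcl6 fell (−1.12).

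In the siSmyd5 libraries 2 of the 10 mRNA regulators fell, Rc3h2 (−1.18, edgeR adjusted p = 0.00897) and Zfp36l1 (−1.25, adjusted p = 0.0435), and 0 rose, beside 3.65% and 2.74% of all tested genes. In the other lists 1 of 7 fell (Etv3, −1.0), 1 of 12 fell (Bcl6, −0.98) and 0 of 11 receptors and transducers changed. Over all tested genes the siSmyd5 calls, 511 here, came to at most 5 without any 1 siSmyd5 or siCtl library and to 5 with DESeq2. In the siPhf2 libraries Zfp36 (1.49) and Arid5a (1.90) rose of the mRNA regulators, Socs3 (1.25) and Sbno2 (1.02) of the IL-10 and STAT3 response, Tyk2 (1.44) of the transducers and Nfkb1 (1.23) of the transcription factors, and 0 genes of these lists fell, beside 8.12% rising and 4.52% falling among all tested genes. These calls depend on scaling and tool: over all tested genes the siPhf2 calls, 1010 here, came to 7385 scaled to the total and to 488 with DESeq2. If the names are exchanged these signs turn round.

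The tested genes most like each member over the 6 libraries were found as those at the smallest Euclidean distance of mean-centred log2 values (TMM-scaled CPM with 15.2 added, which flattens genes with few reads). Nearest to Il6 were the interferon-induced Samd9l (distance 0.95) and the GTPase gene Gem (1.04); Gem had 119, 2 and 205 reads in the siSmyd5, siPhf2 and siCtl KLA libraries against 12, 3 and 19 with vehicle. Nearest to Il12b were the small Maf factor Maff (0.27) and the decapping enzyme Dcp2 (0.27), and nearest to Il23a were Dennd4a (0.36) and the arginase Arg2 (0.56), which like Il23a had 0 reads in the siPhf2 KLA library. Nearest to Il27 were Rhbdf2 (0.13) and Dcbld2 (0.25), to Lif, among others, Mex3c (0.35), to Osm Lin7c (0.20) and Rcc1 (0.22), and to Ebi3 Golm1 (0.090) and Commd8 (0.10).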

How the data were processed

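Poly(A) RNA of 6 libraries was fragmented, tailed, reverse transcribed with barcoded primers and sequenced, per the labels' protocols, with no molecular identifiers described. The deposited signal gives, for each RefSeq transcript, its reads brought to 10000000 tags, per the file headers. HOMER and mm9 come from the submitters' processing notes. Aligner, filters and strand use: not given in the sources used here. Whole reads were recovered by dividing by the scale, called whole within 0.02: 100% of values in every column, for siCtl and siPhf2 only with each other's header total. Groups came from sample titles. No label ties a library to its own animal or culture, and no group has replicates. The spread behind each p-value is thus the departure from the additive fit. It cannot be split into technical, biological and arm-specific parts.

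Averaged effects used edgeR 4.0.16 in R 4.3.3 on recovered reads (additive siRNA and agent, TMM, mean of at least 10 reads, 2 residual degrees of freedom, threshold 0.05), since whole reads could be recovered. With 1 library per combination, the residual is what departs from a KLA response shared by the arms. The script recovered at least some known changes, none with the wrong sign, on counts simulated from the additive fit with a single dispersion. Those counts held no arm-specific KLA response and no excess of Rn45s in the siPhf2 libraries, so they could not check the fit against these. limma 3.58.1 (log2 values with 15.2 or 1 CPM added, and voom) and DESeq2 1.42.0 were alternatives. CPM here means TMM-scaled recovered reads per 1000000, not a deposited unit. Ratios of 2 libraries have exact conditional Poisson intervals (SciPy 1.17.1), and bounds use a floor of 3 reads per library. Coding lengths are the longest in GENCODE M21. Overlapping and antisense genes cannot be told apart. Genes were named by a fixed rule: the members, the targets, list genes that passed (up to 4 each way), receptor chains and the 2 nearest patterns; a few genes that this rule names are not reported here. Members and lists were chosen with earlier results of these data known.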

Additional observations from a re-analysis of the deposited data

How the results depend on the processing

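No paired analysis was possible because the labels give no replicate numbers; the additive fit itself compares KLA with vehicle within each siRNA arm. Of the averaged log2 folds of single members 292 stayed on their side of the threshold under the alternatives, 23 newly passed and 5 no longer did. Members called for KLA were 8 of 9 with no minimum mean, 1 with a minimum mean of 50 reads (which leaves 1 member tested) and 3 with limma on log2 values at a pseudocount of 1, in place of 5. Genes called for KLA were 685 with that minimum of 50, 609 with DESeq2, 404 and 245 with limma (pseudocounts 15.2 and 1), 2112 without both siPhf2 libraries and 435 to 2052 leaving out 1 library, in place of 1261; the low end is without siSmyd5 KLA and the high end without siPhf2 vehicle. For siSmyd5, members called were 2 without both siPhf2 libraries, 0 to 2 leaving out 1 library and 1 (Il6, 3.10) with names exchanged, in place of 0. Genes called were 222 scaled to the total, 101 with a minimum of 50 reads, 5 by DESeq2, 17 by limma-voom, 0 and 0 by limma for both pseudocounts, 2198 without both siPhf2 libraries, 2030 with names exchanged and 1 to 2210 leaving out 1 library (at most 5 without a siSmyd5 or siCtl library, at least 2199 without a siPhf2 library), in place of 511. For siPhf2, members called were 5 scaled to the total, 1 without Rn45s in the total (Il6), 1 with no minimum mean (Il6), 1 with limma-voom (Il27) and 0 to 2 leaving out 1 library (Il6 and Il23a without siPhf2 vehicle, Il6 without siCtl KLA), in place of 0. Genes called were 7385 scaled to the total, 1697 to the total without Rn45s, 488 with DESeq2, 642 and 206 with limma and 211 to 1459 leaving out 1 library (211 without siCtl KLA, 1459 without siPhf2 KLA), in place of 1010. The causes of these moves were not tested.

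By size, exchanging the names gave 5 members for KLA in the arm then labelled siPhf2 and 2 in the arm then labelled siCtl, where Il23a reversed (−0.46), and for siSmyd5 0 with vehicle (Lif 0.00, Osm 0.68, both reversed) and 3 with KLA. In siPhf2 over siCtl under KLA it reversed Il6 (2.12), Il23a (3.50) and Il27 (−1.41). Scaling to the total gave 1 member with vehicle and 5 with KLA for siPhf2, and reversed Il27 under KLA (−0.66). What the depth limits most is the siPhf2 KLA library, where 3 reads stand for 21.6 CPM and the 95% upper limit of 0 reads is 26.6 CPM.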

Other observations

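Il12a and Lif have a further RefSeq transcript in the table with a different start, and its reads nearly matched those used. Il12a NM_008351 had 20, 7 and 28 reads in the siSmyd5, siPhf2 and siCtl KLA libraries, beside 21, 7 and 29 for the transcript described, a net difference of at most 1 read in a library. Lif NM_001039537 had 16, 1 and 55 reads in the same libraries, beside 19, 1 and 60. These totals do not separate the isoforms.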
